A study of Homo sapiens with 12 samples.

Results

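The response of HCT116 TIM-mAID cells to the ATR inhibitor ceralasertib alone (ATRi) was described across all genes. HCT116 is an established human colorectal cancer line, and in TIM-mAID cells an auxin-inducible degron (mAID) was knocked in with CRISPR; TIM is taken here as TIMELESS, a protein that travels with the replication fork. The members were chosen by their labels: 3 libraries of cells given ATRi at 1 µM for 40 h, without the degrader ligand 5-Ph-IAA, and 3 libraries of cells given DMSO, the solvent of both compounds, for 40 h. These are 6 of the 12 poly(A) RNA libraries of the series. The other 6 come from the same line after 40 h with 5-Ph-IAA at 1 µM (3 libraries) or with 5-Ph-IAA and ATRi at 1 µM each (3 libraries), and enter here through the shared estimate of the spread and in a closing comparison. All groups carry the same knock-in, so the controls are not unmodified HCT116 cells, and no untagged line was analysed here. The design text of the series calls the 3 libraries of each group biological replicates, and p-values measure the spread between them in a single engineered line.

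ATR is a kinase that is activated by single-stranded DNA at stalled or unfinished replication forks. Through its effector kinase CHK1 it holds back new origins and delays entry into mitosis until replication is complete. p53 is a transcription factor that DNA damage kinases stabilise; its targets stop the cell cycle, repair DNA, adjust metabolism or promote apoptosis, and HCT116 is widely used because its p53 is wild type. Genes of mitosis are switched on late in the cell cycle by complexes with B-MYB and FOXM1. Many of these genes have a promoter element called the cell cycle genes homology region (CHR), and p53 lowers them through p21 and the DREAM complex.

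Of 62700 genes in the table, 18049 had enough counts to be tested. Levels are given in CPM, the counts per mega counts of a library after scaling by the trimmed mean of M-values (TMM). Libraries are numbered by the set in their title, and log2 fold changes (ATRi minus DMSO) carry their standard error. Library totals were 29.9 to 34.2 mega counts (M) with DMSO and 32.7 to 34.7 M with ATRi (2-sided exact permutation p = 0.2, n = 3 per group; the smallest p that 3 against 3 allows is 0.1). Libraries within a group stood apart from each other. Transcripts of the mitochondrial genome took 7.85%, 14.9% and 6.63% of the counts in DMSO 1, 2 and 3, and 13.4%, 11.1% and 7.40% in ATRi 1, 2 and 3 (2-sided exact permutation p = 0.9, n = 3 per group). Epithelial markers of the line were present: KRT8, a keratin of simple epithelia, ranged from 1782 to 2544 CPM and CDH1, the cadherin of epithelial junctions, from 63.2 to 94.4 CPM over the 6 libraries. The labelled colorectal origin was only partly reflected, since 9 of 16 colon epithelial markers passed the count filter and CDX1, VIL1, CEACAM5, CDH17 and TFF3 did not. Among 20 markers of other cell types 10 passed, while PTPRC and CD3E (blood cells), COL3A1 (fibroblasts) and PECAM1 (endothelium) did not. Of the 10 tested, none had an adjusted p below 0.05, and 3 had every ATRi library above every DMSO library, as did 4.73% of all genes tested. ACTA2, the smooth muscle actin, was at 6.37, 9.52 and 6.38 CPM with DMSO and at 17.3, 14.9 and 12.6 CPM with ATRi (log2 fold change 1.01 ± 0.20, edgeR adjusted p = 0.141). TUBB3, a neuronal tubulin, had a log2 fold change of 0.41 ± 0.14 and CD14, a monocyte receptor, 0.82 ± 0.40 (edgeR adjusted p = 0.799 and 1). CD14 was near the limit of detection, at 0.124, 0.141 and 0.0850 CPM with DMSO and at 0.268, 0.183 and 0.169 CPM with ATRi. Of the 10 markers, 5 had positive and 5 negative values. The lowest was SNAP25 (-0.97 ± 0.53), with mean levels of 0.428 CPM with DMSO and 0.219 CPM with ATRi and overlapping groups. The part of these markers in the results was not tested.

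ATRi alone raised a small set of genes led by p53 targets, and no gene fell past the threshold. With an adjusted p below 0.05, 12 genes were higher (0.0665% of those tested) and 0 were lower (0% of those tested) by edgeR's quasi-likelihood test. At an unadjusted p below 0.05 there were 426 higher (2.36%) and 451 lower genes (2.5%). These shares are near those that such a threshold gives with no effect at all. DESeq2, with its own adjusted p, called 68 higher and 34 lower. CDKN1A, SESN1, FDXR, TP53INP1, TRIAP1, PHLDA3 and SULF2, that is 7 of the 12, belonged to lists of p53 targets chosen with earlier results of these data known. In each of the 12 genes all ATRi libraries were above all DMSO libraries, as was the case for 854 genes in all (4.73% of those tested). The 12 were called on these same libraries, so this order is no added support. The number of higher genes was 3 without DMSO 1, 4 without DMSO 3, 5 without ATRi 1, 4 without ATRi 2 and 7 without ATRi 3. When only the 6 DMSO and ATRi libraries were fitted, no gene passed.

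**Figure D1:**
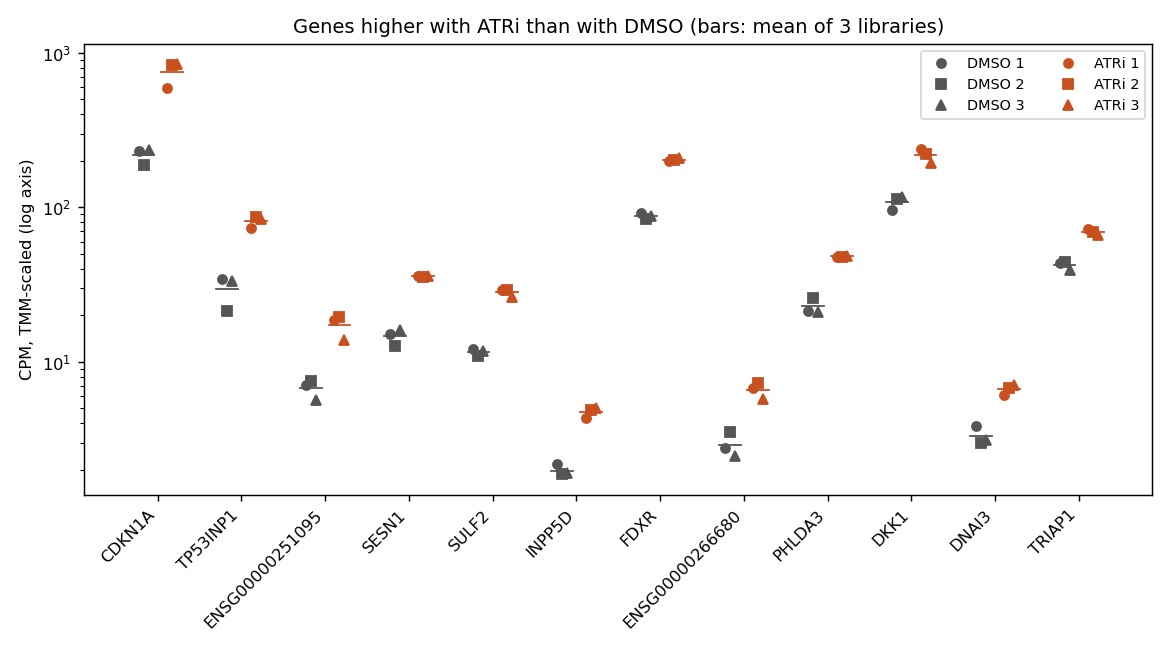
Level of the 12 genes that were higher with ATRi, in TMM-scaled CPM on a log axis, in each DMSO (grey) and ATRi (orange) library; marker shapes give the set number and short bars the mean of 3 libraries. The groups do not overlap for any of the 12 genes, and CDKN1A is the most abundant, at 596 to 842 CPM with ATRi.

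CDKN1A (ENSG00000124762.14, chr6:36676463-36687332 in GRCh38.p14) encodes p21, the inhibitor of cyclin-dependent kinases through which p53 halts the cycle. It stood at 231, 189 and 234 CPM in DMSO 1, 2 and 3 and at 596, 834 and 842 CPM in ATRi 1, 2 and 3. ATRi 1 was the lowest of its group and still above every DMSO library by a wide margin. The log2 fold change was 1.80 ± 0.18 (edgeR adjusted p = 0.00407). FDXR (ENSG00000161513.12, chr17:74862497-74872994) encodes the mitochondrial ferredoxin reductase that feeds electrons to steroid and iron-sulfur cluster synthesis. Its levels were 92.6, 84.4 and 88.0 CPM with DMSO and 201, 203 and 207 CPM with ATRi, so that both groups were tight and far apart (1.21 ± 0.12, edgeR adjusted p = 0.00407).

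SULF2 (ENSG00000196562.16, chr20:47657406-47786627), an extracellular sulfatase that trims 6-O-sulfate from heparan sulfate, had the smallest p of all genes. It was at 12.2, 10.8 and 11.8 CPM with DMSO and at 29.2, 29.2 and 26.1 CPM with ATRi (1.28 ± 0.10, edgeR adjusted p = 0.00125). The other 17 tested genes for heparan sulfate enzymes and proteoglycans did not pass, and the list of 18 had a median log2 fold change of 0.03, beside -0.02 over all genes tested. SESN1 (ENSG00000080546.14, chr6:108984309-109094846), a sestrin that restrains mTORC1 signalling, was at 15.1, 12.7 and 16.1 CPM with DMSO and at 35.7, 35.6 and 35.7 CPM with ATRi (1.29 ± 0.14, edgeR adjusted p = 0.00581). Its 3 ATRi libraries were nearly equal. Its paralogue SESN2, a target of both p53 and ATF4, was at 36, 110.5 and 32.6 CPM with DMSO and at 22.8, 56.6 and 29.7 CPM with ATRi, with the set 2 library highest in both groups, overlapping groups and no call (-0.71 ± 0.63).

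PHLDA3 (ENSG00000174307.7, chr1:201464278-201469188) encodes a pleckstrin homology protein that competes with AKT for membrane lipids. It was at 21.4, 26 and 21 CPM with DMSO and at 48.0, 47.8 and 48.6 CPM with ATRi (1.08 ± 0.12, edgeR adjusted p = 0.00581). TP53INP1 (ENSG00000164938.14), a stress protein that promotes p53 phosphorylation and autophagy, was at 34.1, 21.5 and 33.2 CPM with DMSO and at 73.0, 86.5 and 84.0 CPM with ATRi (1.45 ± 0.20, edgeR adjusted p = 0.0265). DMSO 2 was the low library of the control group for TP53INP1. TRIAP1 (ENSG00000170855.4, chr12:120443964-120446384), a small mitochondrial protein that carries phosphatidic acid and limits apoptosis, had the smallest rise of the 12: from 43.4, 44.5 and 39.5 CPM to 72.0, 68.9 and 66.6 CPM (0.70 ± 0.11, edgeR adjusted p = 0.0499).

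The remaining 5 genes were outside the p53 lists. DKK1 (ENSG00000107984.10, chr10:52314281-52317657), a secreted antagonist of the Wnt co-receptors LRP5 and LRP6, went from 95.9, 114 and 116 CPM with DMSO to 238, 221 and 195 CPM with ATRi (1.00 ± 0.12, edgeR adjusted p = 0.0114). It was the only 1 of 13 tested Wnt target genes to pass; the list had a median of 0.17. INPP5D (ENSG00000168918.14, chr2:233060342-233207903), the inositol phosphatase SHIP1 known mainly from blood cells, was low throughout, at 2.16, 1.87 and 1.90 CPM with DMSO and 4.33, 4.89 and 5.02 CPM with ATRi (1.26 ± 0.16, edgeR adjusted p = 0.0171). DNAI3 (ENSG00000162643.13, chr1:85062327-85133138), a dynein intermediate chain of cilia, was at 3.83, 2.96 and 3.12 CPM with DMSO and at 6.12, 6.72 and 7.05 CPM with ATRi (1.00 ± 0.15, edgeR adjusted p = 0.0427).

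Both other genes carried no symbol and are listed as antisense genes in GENCODE v29 (GRCh38), so their reads cannot be told apart from those of the opposite strand unless counting used strand, which is not given in the sources used here. ENSG00000251095 was at 7.11, 7.47 and 5.67 CPM with DMSO and at 18.5, 19.4 and 13.9 CPM with ATRi (1.36 ± 0.16, edgeR adjusted p = 0.0108). ENSG00000266680 (chr6:63571005-63572408, minus strand) lies within PTP4A1, a phosphatase gene. It was at 2.78, 3.49 and 2.44 CPM with DMSO and at 6.74, 7.27 and 5.78 CPM with ATRi (1.19 ± 0.18, edgeR adjusted p = 0.0499). PTP4A1 averaged 224.7 CPM with DMSO and 299.4 CPM with ATRi (0.41 ± 0.16, edgeR adjusted p = 0.889), and the part of reads from its opposite strand in the call was not tested.

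CDKN1A, FDXR and SULF2 passed again when any 1 of the 6 libraries was left out. SESN1 was lost without DMSO 1 or ATRi 2 (adjusted p up to 0.0771), and PHLDA3 without DMSO 1 or DMSO 3 (up to 0.0771). DKK1 and ENSG00000251095 passed only without DMSO 2 or ATRi 3. TP53INP1 and ENSG00000266680 did so only without DMSO 2, and INPP5D, DNAI3 and TRIAP1 were lost in all 6 refits. The direction and size held in every refit, with a log2 fold change of 1.71 to 1.95 for CDKN1A and of 0.65 to 0.74 for TRIAP1.

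Most p53 targets that did not pass also had positive values. The 6 lists hold 76 p53 targets, of which 73 passed the count filter; 65 of the 73 were positive, 7 passed the threshold and the median log2 fold change was 0.47, beside -0.02 over all genes tested. All ATRi libraries were above all DMSO libraries for 37 of the 73, beside 4.73% of all genes, and below them for 1, LIF, beside 4.07% (734 genes). The mean level of the 73 genes, on a log2 scale relative to the DMSO mean, was 0.01, -0.05 and 0.04 in DMSO 1, 2 and 3 and 0.45, 0.58 and 0.56 in ATRi 1, 2 and 3. The 2 sets of values lay far apart, and the median stayed between 0.41 and 0.52 without any 1 of the 6 libraries. The lists held 3 called genes without DMSO 1 and 4 each without DMSO 3 or ATRi 2.

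**Figure D2:**
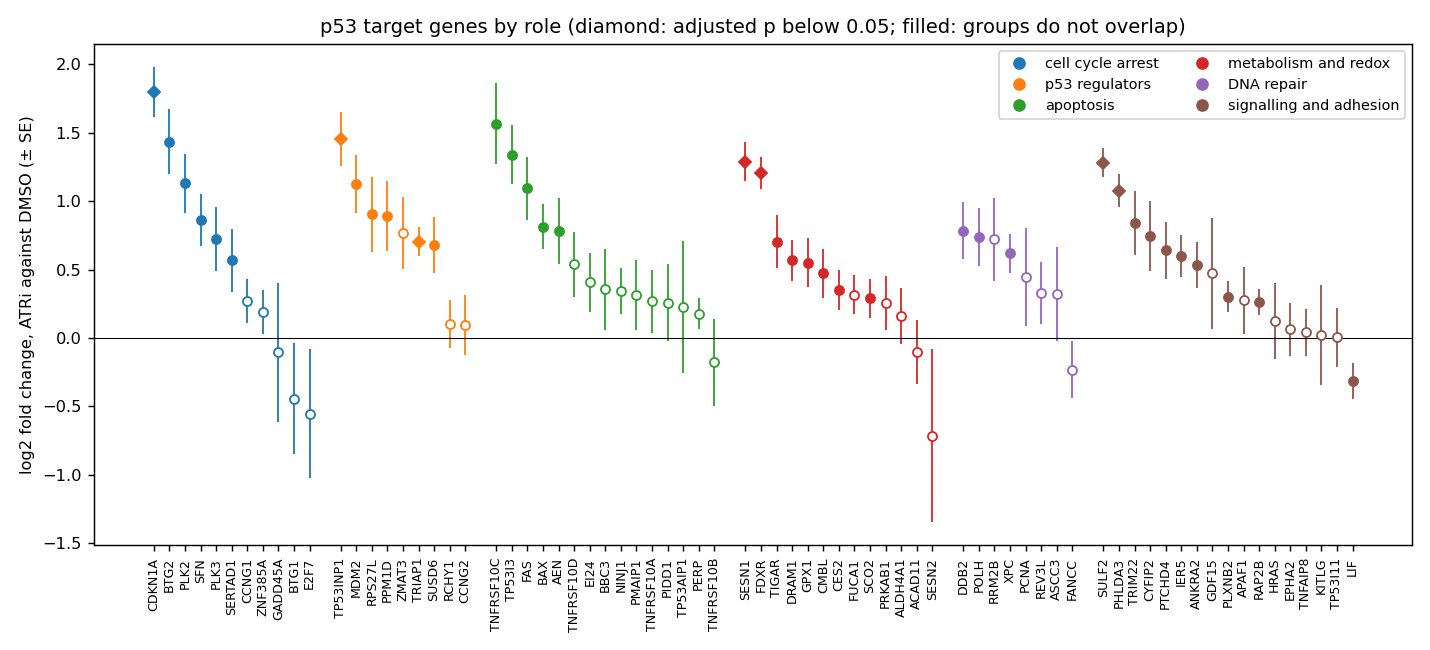
Log2 fold change with ATRi against DMSO (vertical axis, bars are the standard error) for 73 p53 targets grouped by role. Diamonds mark the 7 genes with an adjusted p below 0.05, filled symbols the genes whose 3 ATRi and 3 DMSO libraries do not overlap; most points lie above 0, and SESN2, E2F7 and BTG1 lie farthest below it.

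Among 11 genes of cell cycle arrest, with a median of 0.57, CDKN1A alone passed. BTG2, an antiproliferative adaptor of mRNA deadenylation, was at 27.6, 19.3 and 31.2 CPM with DMSO and at 59.8, 68.5 and 82.9 CPM with ATRi (1.44 ± 0.24, edgeR adjusted p = 0.0645). PLK2, a polo-like kinase of the stress response, was at 49.9, 57.1 and 63.5 CPM with DMSO and at 91.1, 146 and 136 CPM with ATRi (1.13 ± 0.22, edgeR adjusted p = 0.123). The groups were separate for both, and for SFN, the 14-3-3 sigma protein that holds CDC25C and cyclin B1 in the cytoplasm (0.86 ± 0.19). The negative members were E2F7 (-0.55 ± 0.47), a repressor of E2F targets, BTG1 (-0.44 ± 0.41) and GADD45A (-0.10 ± 0.51), and in all of them the groups overlapped. BTG1 and GADD45A were highest in DMSO 2, at 116 and 207 CPM, beside 40.2 to 56.4 CPM and 44.6 to 126 CPM in the other 5 libraries.

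The 9 tested regulators of p53 itself had the highest median of the roles, 0.77, and all were positive. MDM2, the ubiquitin ligase that degrades p53, was at 142, 110.1 and 155 CPM with DMSO and at 234, 336 and 319 CPM with ATRi (1.13 ± 0.21, edgeR adjusted p = 0.123). PPM1D, the phosphatase WIP1 that reverses damage signalling, was at 35.3, 21.1 and 38.1 CPM with DMSO and at 45.5, 62.6 and 67.2 CPM with ATRi (0.89 ± 0.25, edgeR adjusted p = 0.561). Neither passed, although the ATRi libraries were the highest for both.

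Apoptosis genes had a lower median of 0.35 over 15 members, of which 0 passed. TP53I3, an oxidoreductase of the apoptotic response, was at 18.7, 25 and 13.8 CPM with DMSO and at 51.0, 51.6 and 42.9 CPM with ATRi (1.34 ± 0.22, edgeR adjusted p = 0.0645). The death receptor FAS was at 22.2, 13.7 and 24.5 CPM with DMSO and at 34.3, 50.3 and 44.7 CPM with ATRi (1.09 ± 0.23, edgeR adjusted p = 0.171). BAX, which permeabilises the outer mitochondrial membrane, was at 55.0, 52.4 and 49.8 CPM with DMSO and at 111, 83.8 and 82.0 CPM with ATRi (0.81 ± 0.16, edgeR adjusted p = 0.135). The groups of these 3 genes were separate. The BH3-only genes were less clear: BBC3 (PUMA) was at 36.7, 64.1 and 30.02 CPM with DMSO and at 62.0, 58.2 and 46.9 CPM with ATRi, and PMAIP1 (NOXA) at 117, 137 and 116 CPM and at 119, 212 and 129 CPM. Both overlapped, with values of 0.35 ± 0.29 and 0.31 ± 0.26. The decoy receptor gene TNFRSF10C (1.56 ± 0.30) had the largest value of the role, and the death receptor gene TNFRSF10B (-0.18 ± 0.32) the only negative one. Both belong to a cluster of related receptor genes, so the split of counts between them is uncertain. Among 26 further BCL2 family and caspase genes the median was 0.06 and none passed.

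Metabolism and redox genes (median 0.35, 13 tested) held SESN1 and FDXR, and TIGAR, a fructose bisphosphatase that slows glycolysis, did not pass (0.70 ± 0.20, edgeR adjusted p = 0.515). Of 8 DNA repair targets, with a median of 0.53, none passed. DDB2 and XPC, which find ultraviolet lesions for nucleotide excision repair, had 0.78 ± 0.21 and 0.62 ± 0.15. XPC was at 48.2, 44.7 and 47.8 CPM with DMSO and at 60.5, 77.6 and 77.9 CPM with ATRi, and DDB2 at 42.5, 24.1 and 42.4 CPM and at 62.2, 59.0 and 66.5 CPM. Both were separate, and DMSO 2 was the low library for DDB2. The 17 signalling and adhesion genes had the lowest median, 0.30, and included SULF2 and PHLDA3. GDF15, a secreted stress cytokine often used as a p53 readout, was at 302, 627 and 236 CPM with DMSO and at 588, 619.7 and 407 CPM with ATRi, overlapping because of DMSO 2 (0.47 ± 0.40).

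Of 11 listed p53-responsive long noncoding RNAs 7 were tested, with a median of 0.45, and none passed. PURPL, a noncoding RNA that dampens p53, had an adjusted p just above the threshold: it was at 1.36, 1.30 and 0.907 CPM with DMSO and at 5.28, 3.09 and 5.02 CPM with ATRi (1.91 ± 0.29, edgeR adjusted p = 0.0509). MIR34AHG, the host of the miR-34a precursor, was at 6.71, 6.35 and 4.90 CPM and at 11.1, 10.1 and 9.70 CPM (0.78 ± 0.18, edgeR adjusted p = 0.269). GAS5 and NEAT1 overlapped, with -0.16 ± 0.35 and 0.11 ± 0.35.

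The RefSeq promoters of GRCh38.p14, taken as the 250 bases before to 50 after each start, were searched on both strands for the p53 response element in its consensus form, a pair of 10-base half-sites each made of 3 purines, a C, a pair of bases that are A or T, a G and 3 pyrimidines, with at most 13 bases between them. It occurred in 10 of 35116 promoters (0.0285%) and in 2 of 88 promoters of the p53 target lists (2.27%), 58 of whose genes were matched. The following 4 are shown because, among the genes tested, they had the highest values with ATRi, so they were chosen after those values were seen. LNCTAM34A is in none of the lists used here. The half-sites are in capitals, with 4 flanking bases on each side.
PURPL, chr5:27472161-27472188, plus strand: cccaGGGCTTGTCTGGGCATGCCCacag
DDB2, chr11:47214975-47215003, plus strand: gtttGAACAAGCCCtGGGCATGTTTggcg
LNCTAM34A, chr1:9182140-9182167, plus strand: ctcgGAACAAGCCCAGGCAAGCCCaggc
PTCHD4, chr6:48111194-48111221, minus strand: tgggAGGCTTGCCCAGACTTGCCCagtg

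LNCTAM34A, which runs antisense to MIR34AHG, had a log2 fold change of 0.69 ± 0.41 (edgeR adjusted p = 1), and PTCHD4, a patched-like membrane protein, 0.64 ± 0.21 (edgeR adjusted p = 0.713). The elements begin at -127 (PURPL), 5 (DDB2), -60 (LNCTAM34A) and -20 (PTCHD4), counted from the annotated start. None of the 4 genes passed the threshold. The consensus occurred in the promoters of 2 other tested genes, MCC (0.25 ± 0.22) and DYNC2H1 (-0.29 ± 0.16), and of 4 genes that were not tested. A match is a description of the letters and not a binding site, and elements outside these windows were not searched.

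Genes of mitosis had mostly negative values, but none passed the threshold. All 79 listed mitotic genes were tested, 78 were negative, 0 passed, and the median log2 fold change was -0.63; the exception, FZR1 (0.02 ± 0.12), encodes an activator of the anaphase-promoting complex. At an unadjusted p below 0.05, 26 of the 79 were lower, beside 2.5% of all genes. The groups did not overlap for 13 of them, beside 4.07% of all genes. In bulk RNA, fewer dividing cells and less of these transcripts per cell cannot be told apart.

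NDC80, the kinetochore protein that binds microtubules, was at 59.1, 54.3 and 56.6 CPM with DMSO and at 34.4, 23.6 and 33.3 CPM with ATRi (-0.90 ± 0.15, edgeR adjusted p = 0.069). CENPU, of the inner kinetochore, was at 27.9, 27.1 and 30.1 CPM with DMSO and at 17.5, 12.8 and 16.6 CPM with ATRi (-0.86 ± 0.15, edgeR adjusted p = 0.069). CDC25C, the phosphatase that activates CDK1 at mitotic entry, was at 16.8, 15 and 19.7 CPM with DMSO and at 9.75, 9.10 and 10.2 CPM with ATRi (-0.82 ± 0.15, edgeR adjusted p = 0.0834). These 3 genes had even levels within DMSO, groups that did not overlap, and ATRi 2 as the lowest library. SKA1 (-0.99 ± 0.19), HJURP, the chaperone of the centromeric histone (-0.84 ± 0.17), and AURKB, the kinase of the chromosomal passenger complex (-0.71 ± 0.22), were separate as well. IQGAP3, a scaffold protein outside the mitotic lists, was at 60.1, 53.4 and 66.6 CPM with DMSO and at 29, 25 and 35.2 CPM with ATRi (-1.01 ± 0.18, edgeR adjusted p = 0.0762).

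Several central mitotic regulators did not separate the groups. CDK1, the kinase that drives mitosis, was at 129.8, 70.2 and 155 CPM with DMSO and at 76.6, 59.5 and 93.7 CPM with ATRi (-0.63 ± 0.31, edgeR adjusted p = 1). CCNB1, its cyclin, was at 199.9, 111 and 254 CPM with DMSO and at 146, 107 and 189 CPM with ATRi (-0.35 ± 0.30), and PLK1 at 74.2, 34.9 and 107 CPM and at 35.8, 35.4 and 81.6 CPM (-0.50 ± 0.44). In each of them DMSO 2 lay at or below the middle of the ATRi libraries and the set 3 library was the highest of its group. FOXM1, the factor that activates late cell cycle genes, overlapped as well, at 54.5, 33.6 and 77.6 CPM with DMSO and at 29.2, 19.2 and 50.5 CPM with ATRi (-0.74 ± 0.40).

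The summed pattern shows the same split. The mean level of the 79 mitotic genes was 0.14, -0.58 and 0.44 in DMSO 1, 2 and 3 and -0.59, -0.90 and -0.18 in ATRi 1, 2 and 3 (log2, relative to the DMSO mean). DMSO 2, with the highest mitochondrial share, was as low as ATRi 1, and ATRi 3, with the lowest share of its group, was above DMSO 2. The median fold change was -0.35 without DMSO 3 and -0.89 without DMSO 2. With the mitochondrial share as a covariate it was -0.48. The part of that share in the negative values was not tested.

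**Figure D3:**
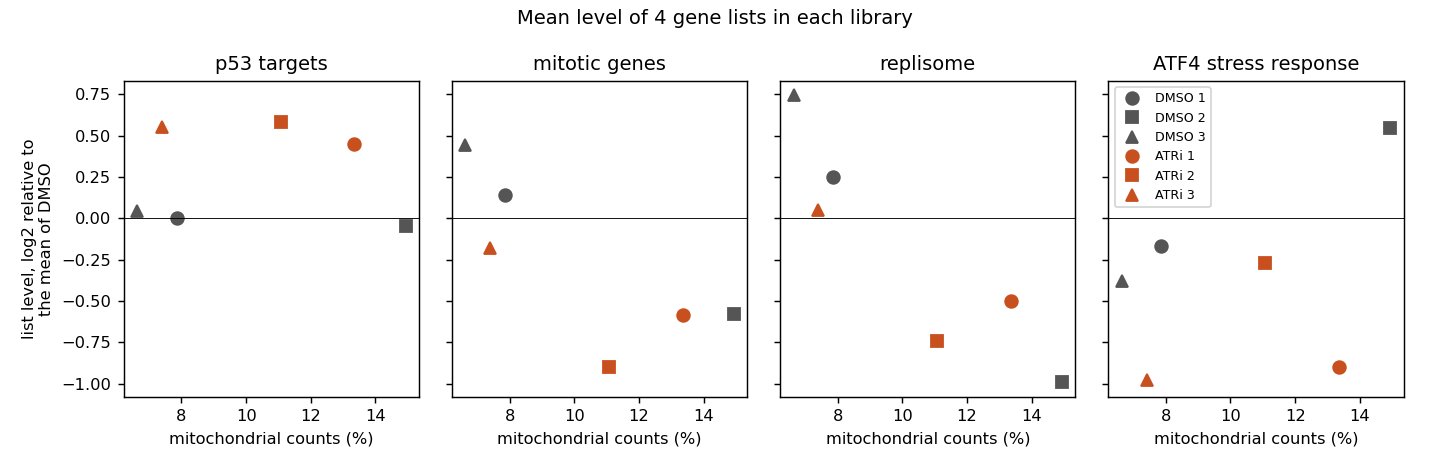
Mean log2 level of 4 gene lists relative to the DMSO mean (vertical axis) against the percent of counts from mitochondrial transcripts (horizontal axis), with 1 point per library. The p53 targets form a separate ATRi group at every mitochondrial share, while DMSO 2, at 14.9%, lies among the ATRi libraries for the mitotic genes, below them for the replisome and above them for the ATF4 list.

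The RefSeq promoters of 68 of the 79 mitotic genes were found, 83 promoters in all, and searched on both strands for the CHR core TTTGAA and for CCAAT, the box bound by NF-Y. The CHR core was in 51 of 83 (61.4%), beside 15.2% of all promoters, and CCAAT in 61 (73.5%), beside 34.6%; both were in 40 (48.2%), beside 5.9%. In the p53 target lists the CHR core was in 11 of 88 promoters (12.5%) and both were in 0. Windows of 30 bases were drawn for a fixed choice of mitotic genes, which left out NDC80, CENPU, SKA1, AURKB, CCNB1 and FOXM1. Those of genes named above follow, with the core in capitals.
CDC25C, chr5:138331817-138331846, minus strand: gctggcggaaggTTTGAAtggtcaacgcct
HJURP, chr2:233854629-233854658, minus strand: gacgcaaatttgTTTGAAaggcccaatcag
PLK1, chr16:23678848-23678877, plus strand: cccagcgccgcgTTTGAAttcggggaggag
CDK1, chr10:60778158-60778187, plus strand: gagtataataaaTTTGAActgtgccaatgc

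The core begins at -30 (CDC25C), -111 (HJURP), -29 (PLK1) and -161 (CDK1), counted from the annotated start. Mitotic genes with the core (47 tested) had a median log2 fold change of -0.66, from -0.99 to 0.02, and those without it (21 tested) -0.51, from -0.89 to -0.17. These ranges overlap almost entirely, and all 4 genes shown were negative whether or not their groups were separate. A match is a description of these letters and no evidence of binding.

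Replication and recombination genes ran the same way, with less separation. All 33 genes of origins and the replisome were negative, with a median of -0.49, yet none was separate between groups and 1 had an unadjusted p below 0.05. Their mean level was 0.25, -0.99 and 0.74 in DMSO 1, 2 and 3 and -0.50, -0.75 and 0.05 in ATRi 1, 2 and 3, so that DMSO 2 was the lowest and DMSO 3 the highest of the 6. The median was -0.11 without DMSO 3 and -0.83 without DMSO 2. CDT1, which loads the replicative helicase, was at 58.8, 25.1 and 76.3 CPM with DMSO and at 28.7, 23.3 and 39.8 CPM with ATRi (-0.80 ± 0.36), and DMSO 2 lay below the other DMSO libraries. The 24 tested genes of homologous recombination and the Fanconi pathway were all negative with a median of -0.68 (-0.34 without DMSO 3), and none passed. FANCI, which is clamped on DNA at crosslinks, was at 95.9, 54.4 and 125 CPM with DMSO and at 51.2, 38.4 and 66.1 CPM with ATRi (-0.82 ± 0.33).

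ZGRF1, a helicase of crosslink repair, showed no such split. It was at 30.1, 21.7 and 28.1 CPM with DMSO and at 14.5, 10.8 and 12.8 CPM with ATRi, without overlap (-1.07 ± 0.21, edgeR adjusted p = 0.134). RRM2, the S phase subunit of ribonucleotide reductase, spread widely, from 87.4 to 337 CPM with DMSO and from 78.5 to 177 CPM with ATRi (-0.91 ± 0.48). RRM2B, the p53-induced subunit, had a value of the other sign, 0.72 ± 0.30, at 93.2, 55.4 and 115 CPM with DMSO and 109, 160 and 166 CPM with ATRi. Neither passed.

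No gene of the pathway that ceralasertib targets passed the threshold. ATR was at 59.0, 56.6 and 56.4 CPM with DMSO and at 55.8, 55.0 and 55.9 CPM with ATRi (-0.04 ± 0.11), with the ATRi libraries just below the DMSO libraries and a difference smaller than its standard error. Inhibition of the kinase acts on the protein, so ATR RNA does not check the labels. CHEK1, which encodes CHK1, was at 39.2, 17.7 and 55.2 CPM with DMSO and at 22.3, 21.3 and 34.1 CPM with ATRi (-0.53 ± 0.38), and WEE1, the kinase that holds CDK1 inactive, at 33.8, 16.3 and 51.3 CPM and at 17.4, 16.4 and 34.4 CPM (-0.57 ± 0.47). Both overlapped, with DMSO 2 and DMSO 3 as the extremes of the control group. TIMELESS, the gene taken to carry the degron, was at 52.2, 30.5 and 67.9 CPM with DMSO and at 30.3, 32.3 and 46.9 CPM with ATRi (-0.46 ± 0.29). Of 21 tested genes of ATR signalling and fork protection 18 were negative, with a median of -0.19. Those of the ATM and end joining list had a median of -0.14 over 20 genes; PRKDC, which encodes DNA-PKcs, had -0.32 ± 0.44 and turned to 0.04 without DMSO 3.

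**Figure D4:**
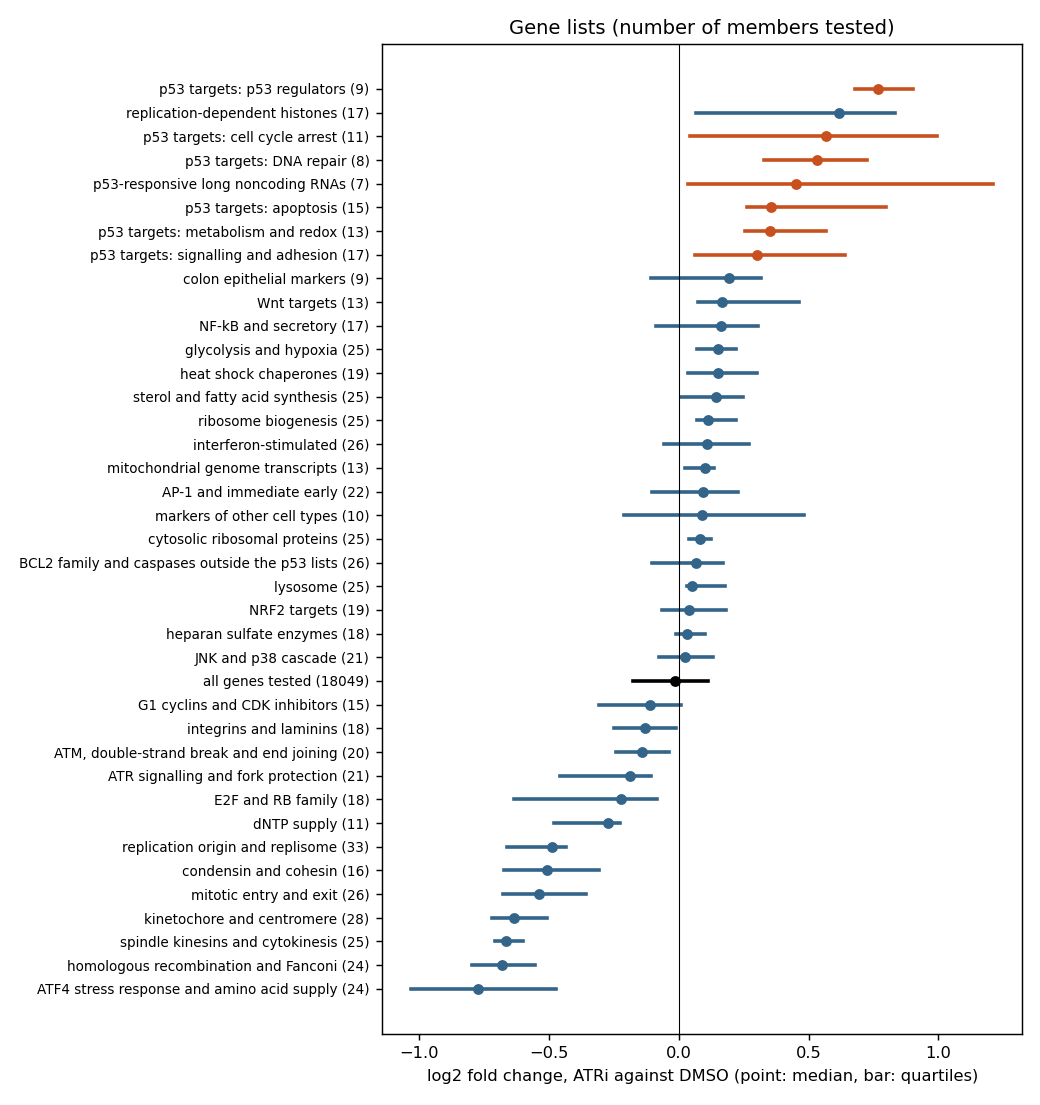
Median log2 fold change with ATRi against DMSO (point) and quartiles (bar) of each gene list, with the number of tested members in brackets and all 18049 tested genes in black. The p53 lists and the histones lie on the positive side, and mitotic, replication, recombination and ATF4 lists on the negative side.

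Histone genes had mostly positive values. Most replication-dependent histone transcripts end in a stem-loop and not in a poly(A) tail, so poly(A) libraries sample only their polyadenylated forms, and near-identical copies make single genes uncertain. Of 17 tested genes 13 were positive, with a median of 0.62 (0.38 without DMSO 3 and 0.93 without DMSO 2), and none passed. H2BC12 was at 18.7, 17.0 and 22.2 CPM with DMSO and at 31.4, 37.6 and 38.5 CPM with ATRi (0.89 ± 0.15, edgeR adjusted p = 0.0645), and H2BC21 at 2.75, 4.09 and 3.09 CPM and at 5.31, 6.11 and 6.26 CPM (0.83 ± 0.19, edgeR adjusted p = 0.274). Both were separate; in the other 15 the groups overlapped.

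The ATF4 stress response, which supplies amino acids when translation or nutrients fail, had the lowest median of all lists, -0.78 over 24 tested genes. None passed, 23 were negative, and for 10 all ATRi libraries were below all DMSO libraries, as for 4.07% of all genes tested. MTHFD2, of mitochondrial one-carbon metabolism, was at 505, 565 and 462 CPM with DMSO and at 274, 371 and 309.9 CPM with ATRi (-0.68 ± 0.21, edgeR adjusted p = 0.605). PHGDH, the first enzyme of serine synthesis, was at 207, 237 and 142 CPM with DMSO and at 91.9, 124 and 92.9 CPM with ATRi (-0.92 ± 0.29, edgeR adjusted p = 0.622). The glycine transporter gene SLC6A9 (-1.26 ± 0.39), the arginine transporter gene SLC7A1 (-0.75 ± 0.25) and the pseudokinase gene TRIB3 (-1.47 ± 0.62) were separate too. DMSO 2 was the highest DMSO library for each of these 5 genes, and the mean level of the list was -0.17, 0.54 and -0.38 in DMSO 1, 2 and 3 and -0.90, -0.27 and -0.98 in ATRi 1, 2 and 3. Without DMSO 2 the median was -0.35.

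Medians of several other programmes lay between 0.03 and 0.16, beside -0.02 over all genes tested, with quartiles of -0.18 and 0.11. These were 0.11 for 26 interferon-stimulated genes, 0.16 for 17 NF-kB and secretory genes, 0.09 for 22 AP-1 and immediate early genes, 0.03 for 21 kinases of the JNK and p38 cascade, and 0.04 for 19 NRF2 targets; no member passed. JUN, the AP-1 subunit that JNK phosphorylates, was at 23.5, 42.2 and 25.9 CPM with DMSO and at 30.5, 43.9 and 29.2 CPM with ATRi (0.18 ± 0.30; -0.03 without ATRi 2). The NF-kB and secretory list held the largest value of any list, that of MMP1, a collagenase, at 0.0309, 0.106 and 0.113 CPM with DMSO and at 0.477, 0.794 and 0.762 CPM with ATRi (2.97 ± 0.51, edgeR adjusted p = 0.0743). These levels are near the limit of detection in all 6 libraries. MMP1 passed the count filter only through the groups with ATRi, where it is high, so the rank of its value is no support for a rise. DHRS2, a mitochondrial reductase outside the lists, was at 9.71, 17.7 and 9.81 CPM with DMSO and at 33.0, 31.1 and 37.6 CPM with ATRi (1.45 ± 0.24, edgeR adjusted p = 0.0645). NIBAN1, a stress-responsive regulator of translation, was at 18.9, 35.5 and 16.3 CPM with DMSO and at 7.10, 9.19 and 9.56 CPM with ATRi (-1.45 ± 0.35, edgeR adjusted p = 0.305), without overlap.

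The response to ATRi was set beside that in cells that also had 5-Ph-IAA, using 6 libraries that are in neither group above. Both contrasts came from the same fit of all 12 libraries and shared its estimate of the spread, so they are not fully independent. There 790 genes were higher (4.38%) and 909 lower (5.04%) with ATRi than without it, by edgeR. All 12 genes higher with ATRi alone were among the higher ones, also without any 1 of those 6 libraries. CDKN1A reached 2027, 2112 and 2048 CPM with both compounds, beside 341, 478 and 487 CPM with 5-Ph-IAA (2.24 ± 0.19, edgeR adjusted p = 6.77e-05), and SULF2 69.8, 65.7 and 70.5 CPM beside 23.1, 21.7 and 21.3 CPM. The interaction, the difference between both responses to ATRi, was 0.45 ± 0.25 for CDKN1A (edgeR adjusted p = 0.829), 0.36 ± 0.15 for SULF2 and -0.44 ± 0.23 for INPP5D, the most negative of the 12. None of the 12 passed the interaction test (14 genes, 0.0776%, passed of all tested), which does not show that the responses were equal. DHRS2, outside the 12, averaged 9.97 CPM with 5-Ph-IAA and 12.4 CPM with both compounds (0.32 ± 0.24, edgeR adjusted p = 0.492). Its interaction was -1.14 ± 0.34 (edgeR adjusted p = 0.384).

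**Figure D5:**
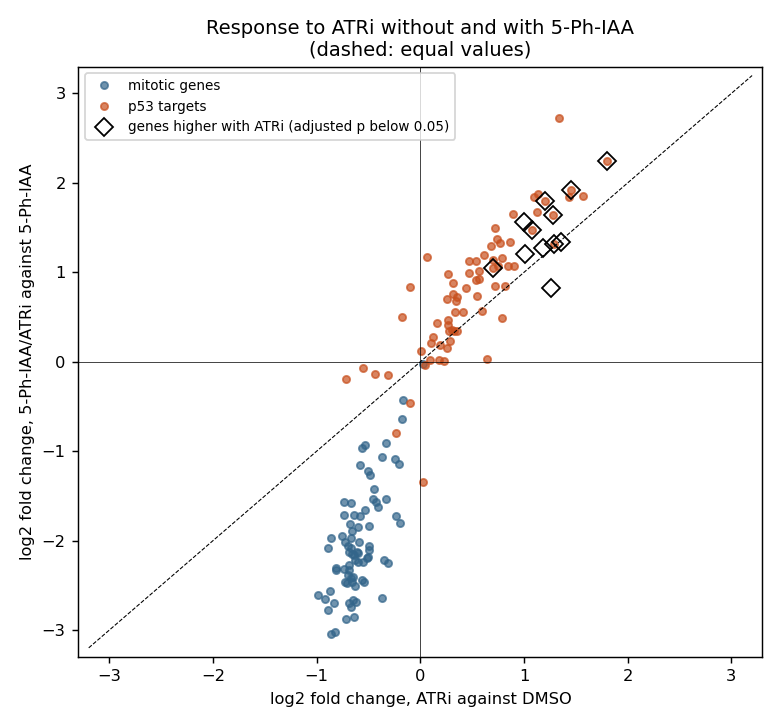
Log2 fold change with ATRi in cells without 5-Ph-IAA (horizontal axis) and with it (vertical axis), with 1 point per gene for the p53 target (orange) and mitotic lists (blue); diamonds mark the 12 genes higher with ATRi alone and the dashed line equal values. Medians of the p53 targets are 0.47 and 0.83, and the mitotic genes lie far below the dashed line, with medians of -0.63 and -2.13.

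The mitotic genes differed most between both settings. Their median was -0.63 without and -2.13 with 5-Ph-IAA, and that of the p53 targets 0.47 and 0.83. CDC25C went from 14.9, 16.1 and 19.2 CPM with 5-Ph-IAA to 1.93, 2.07 and 2.17 CPM with both compounds (-3.02 beside -0.82 with ATRi alone), and the interaction of -2.20 ± 0.21 passed (edgeR adjusted p = 0.00358). NDC80 had an interaction of -1.88 ± 0.22 (edgeR adjusted p = 0.0145). The call for CDC25C held without any 1 of the 12 libraries, and that for NDC80 was lost without DMSO 1, ATRi 3 or the set 1 or set 2 library with both compounds.

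Both single treatments were also compared directly. No gene differed past the threshold between ATRi and 5-Ph-IAA by edgeR (0%), with 427 at an unadjusted p below 0.05. CDKN1A was 0.80 ± 0.18 higher on the log2 scale with ATRi than with 5-Ph-IAA (edgeR adjusted p = 0.789), with all 3 ATRi libraries above 487 CPM. FDXR had 0.49 ± 0.12, from 154, 150.2 and 129 CPM with 5-Ph-IAA to 201, 203 and 207 CPM with ATRi, and SESN1 0.63 ± 0.14, both without overlap. INPP5D overlapped, at 3.70 to 4.43 CPM with 5-Ph-IAA (0.21 ± 0.16). DESeq2 called 25 genes in this comparison, among them 5 of the 12. In each of the 12, every 5-Ph-IAA library was also above every DMSO library. SULF2, for example, was at 21.3 to 23.1 CPM with 5-Ph-IAA, beside 10.8 to 12.2 CPM with DMSO. The 12 genes were called against these same DMSO libraries, which favours that order, so it is no evidence of an effect of 5-Ph-IAA. The contrast of 5-Ph-IAA against DMSO was not tested here, and the share of all genes with that order was not counted.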

How the data were processed

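Per the labels' protocols, poly(A) RNA was selected after a column isolation with DNase and made into directional libraries. The authors deposited estimated counts per gene; per the submitters' processing notes the tools included Salmon 1.10.1 and STAR 2.7.9a, with the build GRCh38.p14, and trimming tools. The sources used here name neither the annotation release nor the strand setting. Of the values, 13.6% were not whole, and all were rounded. Genes were kept by filterByExpr (minimum count 10, minimum total 15), which left at least 99.89% of each library's counts, scaled by TMM and tested with edgeR 4.0.16 (limma 3.58.1, R 4.3.3) by the quasi-likelihood F test. A single model of all 12 libraries had 1 mean per group, and p was adjusted by Benjamini-Hochberg over 18049 genes with a threshold of 0.05. The median coefficient of biological variation was 0.214. No pair of replicates was a duplicate (chi-square per gene 45.3 to 243.6). DESeq2 1.42.0, limma-voom, other factors, filters, covariates, a block and leave-one-out fits were alternatives. The procedure was tested on simulated data.

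The comparison, the 38 gene lists and the named genes were chosen with earlier results of these data known. Named are genes past the threshold, the 8 largest rises and falls with the set number as a block and the 6 largest without overlap (both from 5 CPM), up to 4 members per list by p, and 21 fixed genes. The text gives those that show a pattern; LIF, SESN2, FZR1, other list members and PTP4A1 were singled out after their values were seen. Values of some named genes and list members are left out. Of 177 named genes 171 were matched to RefSeq by symbol.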

Additional observations from a re-analysis of the deposited data

Results flagged for a closer look

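For 4 named mitotic genes the response to ATRi differed between cells without and with 5-Ph-IAA by the interaction test in edgeR. For CDC25C, the phosphatase that activates CDK1, the log2 fold change was -0.82 without and -3.02 with 5-Ph-IAA, a difference of -2.20 ± 0.21 (edgeR adjusted p = 0.00358). For NDC80, of the outer kinetochore, the values were -0.90 and -2.78, a difference of -1.88 ± 0.22 (edgeR adjusted p = 0.0145). For HJURP, the chaperone of the centromeric histone, they were -0.84 and -2.70, a difference of -1.86 ± 0.24 (edgeR adjusted p = 0.0218). For AURKB, the kinase of the passenger complex, they were -0.71 and -2.88, a difference of -2.16 ± 0.32 (edgeR adjusted p = 0.0394). Each of the 4 genes was lowest in the libraries with both compounds, for example AURKB at 9.63, 7.92 and 8.63 CPM, beside 25.8 to 46.4 CPM with ATRi alone. HJURP lost its call without DMSO 1, ATRi 1, ATRi 3, 5-Ph-IAA 1, 5-Ph-IAA 3 or any library with both compounds. AURKB kept its call only without ATRi 2 or 5-Ph-IAA 2, with an adjusted p of 0.168 without DMSO 1. Over all genes 14 passed this test, 0.0776% of those tested, and 2 passed without DMSO 1 or ATRi 3.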

How the results depend on the processing

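The main count was 12 genes higher and 0 lower. It became 24 and 4 with no count filter, 68 and 34 with DESeq2, 79 and 43 with the mitochondrial share as covariate, 125 and 93 with the within-group component as covariate, and 2 were lower with upper quartile factors. With only DMSO and ATRi libraries 0 were higher, also with a replicate block. Without 1 library it was 3 to 11 higher and 0 to 1 lower. Why these counts moved was not tested; fewer libraries leave fewer residual degrees of freedom. Of the 12 genes, ATRi against 5-Ph-IAA called 0, but 5 with DESeq2, 1 with the mitochondrial covariate and 4 with the component covariate; the interaction called 0, but 1 with DESeq2 and 1 with the component covariate. Over all genes the interaction called 14, 47 with no filter, 212 with DESeq2, 278 and 620 with the covariates and 2 to 15 without 1 library. Both compounds against 5-Ph-IAA gave 790 higher and 909 lower genes, 2720 and 2787 with the mitochondrial covariate, and 360 to 572 and 417 to 762 without 1 library.

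Set numbers paired the DMSO and ATRi libraries only in part. Deviations of same-numbered libraries correlated at -0.09, -0.07 and 0.65, and 1 of 3 ATRi libraries correlated best with its own number. The set 3 library had the lowest mitochondrial share in every group: 6.63% with DMSO, 7.40% with ATRi, 6.79% with 5-Ph-IAA and 10.7% with both compounds. The fit with the set number as a replicate block called 55 genes higher, including the 12, and 45 lower; its interaction called 215.

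Signs reversed only for values that had not passed the test, with these ranges of log2 values over fits without 1 library: TIPIN -0.37 to 0.0078, PRKDC -0.68 to 0.039, CDC25A -0.81 to 0.25, MT-ATP8 -0.42 to 0.15, JUN -0.035 to 0.48, MT-CO1 -0.036 to 0.63 and MT-ND5 -0.040 to 0.53. For the interaction they were -0.15 to 0.088 for ENSG00000251095 (0.0044 with a stricter count filter), -0.064 to 0.20 for ENSG00000266680 and -0.087 to 0.17 for SESN1.

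With totals of 27.7 M to 34.7 M, counting error is small for most genes named, while MMP1, PURPL and INPP5D rest on low levels. The first within-group component held 56.1% of the variance within groups.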

Other observations

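IGF2R, which encodes the mannose 6-phosphate receptor that sorts lysosomal enzymes, stood at 5212 CPM in DMSO 1 and at 110.4 to 358.5 CPM in the other 11 libraries, 14.5 times the second highest. It was the only gene of at least 20 CPM that reached 5 times the level of every other library in any 1 of the 12 libraries. The gene was chosen after its values were seen.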
